A study of Mus musculus with 8 samples.

Results

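In all, 10 genes of the Notch pathway and of the lineage choice it controls were followed in mouse colonic mucosa. They were the ligands Jag1, Dll1 and Dll4, the receptors Notch1 and Notch2, the DNA-binding effector Rbpj, the targets Hes1 and Nrarp, the inhibitor Numb and the secretory lineage factor Atoh1. The members were the rows of the array table whose symbol in the platform annotation is one of these names. All 10 were found, with 1 row each, among 18097 rows, of which 16610 carry a gene symbol. RNA came from 4 male mice of a mixed 129Sv/B6/D2 strain, aged 157 days, and each mouse was measured on 2 Illumina MouseRef-8 BeadChip arrays. The 2 transgenic mice had the genotype Dnmt1LO/LO, TgVillacIGY, and the 2 control mice had Dnmt1LO/LO alone, so the Dnmt1LO allele was homozygous in every mouse. The labels do not spell out what either allele name stands for, what drives the transgene, or in which cells it is expressed. The study set mucosa with inhibition of Dnmt1, the enzyme that maintains CpG methylation, against mucosa without it.

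Notch signalling passes between touching cells. A ligand of the Delta or Jagged family on a cell's surface binds a Notch receptor on a neighbouring cell, the receptor is cut by an ADAM protease and then by gamma-secretase, and the freed intracellular domain joins Rbpj in the nucleus and switches on targets such as Hes1. In the intestinal crypt Hes1 represses Atoh1, the factor needed for goblet, enteroendocrine and other secretory cells, so that cells with active Notch become absorptive cells or stay progenitors.

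No methylation was measured, and RNA levels were not set against the CpG content of promoters. Promoter windows of 3 genes are shown because they belong to genes that were detected on every array, and because CpG is the dinucleotide that Dnmt1 acts on. Each is the stretch of 250 bases before a RefSeq transcription start in the mouse build GRCm38.p6, written 5′ to 3′ on the strand of the gene, with every CpG in capitals. The window of Nrarp lies at chr2:25180508-25180757 on the plus strand and holds 18 CpGs. That of Notch1 lies at chr2:26503823-26504072 on the minus strand and holds 16. That of Dll1 lies at chr17:15375824-15376073 on the minus strand and holds 21, and another Dll1 start has a window with 13.
Nrarp: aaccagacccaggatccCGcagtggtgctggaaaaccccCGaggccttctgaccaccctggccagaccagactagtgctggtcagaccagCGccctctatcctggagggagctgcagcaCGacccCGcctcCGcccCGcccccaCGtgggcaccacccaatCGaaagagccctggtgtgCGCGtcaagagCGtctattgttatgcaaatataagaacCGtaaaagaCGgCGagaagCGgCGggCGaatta
Notch1: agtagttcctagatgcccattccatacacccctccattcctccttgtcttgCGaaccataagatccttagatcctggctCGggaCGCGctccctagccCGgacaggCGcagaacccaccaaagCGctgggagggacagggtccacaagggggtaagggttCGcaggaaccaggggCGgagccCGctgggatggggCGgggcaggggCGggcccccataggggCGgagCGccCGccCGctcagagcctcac
Dll1: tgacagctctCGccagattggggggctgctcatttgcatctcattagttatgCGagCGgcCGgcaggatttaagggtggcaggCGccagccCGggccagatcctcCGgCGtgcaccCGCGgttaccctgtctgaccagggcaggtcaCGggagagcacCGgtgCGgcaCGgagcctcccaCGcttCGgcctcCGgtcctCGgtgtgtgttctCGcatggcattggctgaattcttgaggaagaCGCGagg
Across 32851 RefSeq windows of this length the median was 6 CpGs and the upper quartile 16. The table of windows used here held 13 for 9 of the 10 genes, and 11 of the 13 had at least the median number. Numb had the fewest, with 5, 3 and 12 CpGs at its 3 starts, and Notch2 the most, with 34. The core of the Rbpj binding motif, TGGGAA, was searched on both strands. It occurred in 2 of the 13 windows, both of Rbpj itself, and in 21.6% of all windows. Those 2 windows overlap and share a match on the minus strand, and the upstream window holds a further match on the plus strand. A window for Hes1 was not used here.

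Of the 10 genes, 4 were detected on all 8 arrays and could be tested: Dll1, Notch1, Hes1 and Nrarp. A row counted as detected on an array where its detection p, which in Illumina's software reflects the share of negative controls at least as bright, was under 0.01, and it was tested where this held on at least 4 of the 8 arrays. Of the other 6, Jag1, Dll4, Notch2, Rbpj and Atoh1 were detected on 0 arrays and Numb on 1. None of the 4 tested genes passed the test between genotypes, which was a limma fit on the means of each mouse, with p-values adjusted by Benjamini-Hochberg across the 6982 tested rows and called under 0.05. Of all rows tested, 9 passed, or 0.129%, all of them higher in the transgenic mice. At an unadjusted p under 0.05 none of the 4 passed either, against 587 of 6982 rows, or 8.41%. With 2 mice against 2, an exact two-sided permutation test of a single value cannot give a p below 0.333. Signals of different probes are not on a common scale, so no order of the genes by level is given.

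**Figure D1:**
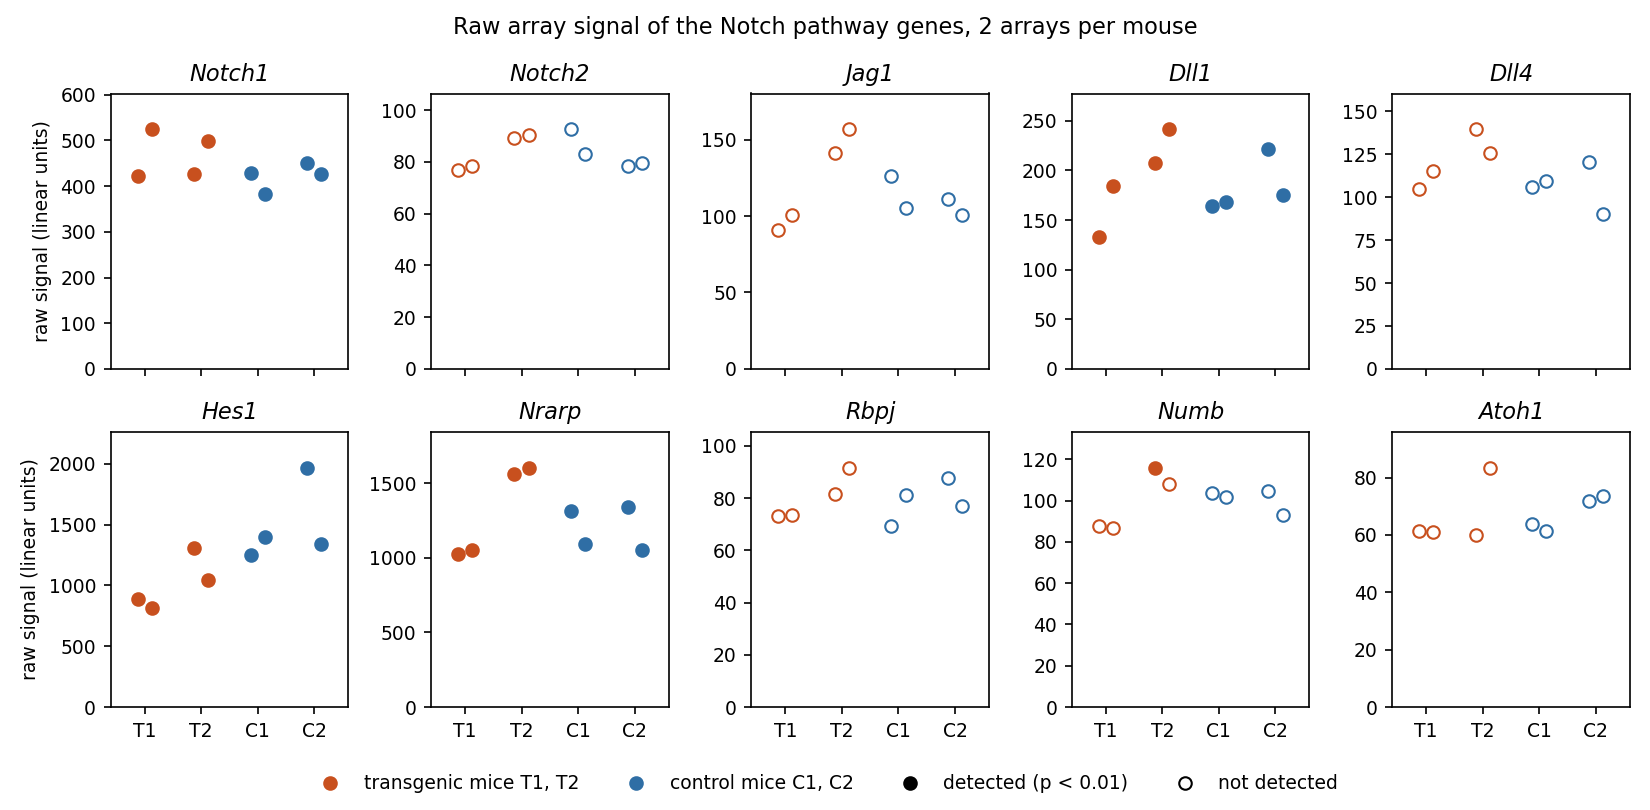
Raw, linear signal of the 10 genes on each array, in a panel per gene whose axis starts at 0. T1 and T2 are the 2 transgenic mice and C1 and C2 the 2 control mice, with 2 arrays (points) each, and filled points were detected. Notch1, Dll1, Hes1 and Nrarp were detected on all 8 arrays, Numb on 1 and the other 5 genes on none.

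Dll1 (row ILMN_2721188), a ligand that secretory precursors present to their neighbours, gave raw signals of 133.2, 184, 207 and 241.3 on the transgenic arrays, those of mouse 1 before those of mouse 2 as in all lists of 4 arrays here, against 164.2 and 168.5 in control mouse 1 and 221.9 and 175 in control mouse 2. The genotypes overlapped. After background correction and normalization its level was 6.71 and 6.96 in the transgenic mice against 6.58 and 6.97 in the control mice, in log2 units. The difference, transgenic minus control, was 0.06 ± 0.22 (SE, limma adjusted p = 0.949), with a 95% interval of -0.51 to 0.63. The 2 arrays of a mouse differed by up to 0.67 log2 units, more than the genotypes did.

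Jag1 (ILMN_1257077), a ligand of the Jagged family, gave 90.6 and 100.7 on the arrays of transgenic mouse 1, and 141.4 and 156.7 on those of transgenic mouse 2, against 125.9, 105.4, 110.9 and 100.4 in the control mice. By raw signal, both arrays of transgenic mouse 2 lay above all 4 control arrays. Those of transgenic mouse 1 lay at the low end of the control range or under it. Raw signals are not scaled between arrays. The normalized log2 levels of Jag1 were 5.82, 5.25, 5.23 and 5.34 on the control arrays. Transgenic mouse 2, at 5.9 and 6.05, still lay above all of them. Transgenic mouse 1 read 5.19, below every control array, and 5.42, above all but the highest. Dll4 (ILMN_1250828), a Delta ligand best known from blood vessels and also used in the crypt, gave 104.9, 115.3, 139.4 and 125.7 in the transgenic mice against 105.7, 109.5, 120.5 and 90 in the control mice. These raw signals overlapped, while the normalized log2 levels did not, at 5.62, 5.82, 5.86 and 5.46 in the transgenic mice against 5.35, 5.34, 5.4 and 5.09 in the control mice. The lowest transgenic array, at 5.46, was close to the highest control array, at 5.4. Of all rows tested, 21.7% had both transgenic mice above both control mice. The share of rows whose single arrays do not overlap was not counted. At a detection p under 0.05, Jag1 reached detection on 3 arrays, 2 of them transgenic, and Dll4 on 3 arrays, all transgenic. The background inferred for the arrays had a mean of 80 to 95.5 and an SD of 13.7 to 24.2, so these signals were near it. In the fit without a detection filter Dll4 differed by 0.39 ± 0.08 log2 units (SE, limma unadjusted p = 0.00892, adjusted p = 0.478) and Jag1 by 0.23 ± 0.28 (limma adjusted p = 0.89). At an unadjusted limma p under 0.05, 1523 of 18097 rows passed in that fit.

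Notch1 (ILMN_1241915), the receptor that acts with Notch2 in the crypt, gave raw signals of 422.2, 524, 426.3 and 498.4 in the transgenic mice against 429.5, 383.7, 451.3 and 427.4 in the control mice. Its normalized level was 8.98 in mouse 1 and 8.36 in mouse 2 of the transgenic pair, against 8.36 and 8.51 in the control mice. Transgenic mouse 1 was the highest of the 4, and the other 3 lay within 0.15 log2 units of each other, less than the largest gap between the 2 arrays of a mouse, 0.25. The difference between genotypes was 0.24 ± 0.26 (SE, limma adjusted p = 0.813), with a 95% interval of -0.44 to 0.92. Without transgenic mouse 1 it was -0.07. The gap of 0.62 between the 2 transgenic mice exceeded that of 78% of the rows tested, where the median gap was 0.3 between transgenic and 0.15 between control mice. The raw signals are not scaled between arrays, and those of transgenic mouse 1 had the lowest mean signals, 698 to 753, against 998 to 1019 in transgenic mouse 2, 924 to 967 in control mouse 1 and 866 to 1080 in control mouse 2.

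Notch2 (ILMN_2980247) gave 76.9, 78.5, 89.3 and 90.2 in the transgenic mice against 92.5, 83, 78.3 and 79.5 in the control mice, and Rbpj (ILMN_2648536) gave 73.2, 73.6, 81.6 and 91.7 in the transgenic mice against 69.3, 81.2, 87.9 and 77.1 in the control mice. The genotypes overlapped for both genes, and no array reached a detection p under 0.05 for either. Without a filter the differences were 0 ± 0.08 for Notch2 and 0.02 ± 0.08 for Rbpj (SE, limma adjusted p = 0.999 and 0.98). None of these signals exceeded 95.5, the highest background mean inferred for an array, so neither this receptor nor the effector through which canonical Notch signalling acts was measured above background. A weak probe and scarce RNA cannot be told apart.

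Hes1 (ILMN_1247691), the repressor through which Notch signalling holds down Atoh1, gave raw signals of 885.9 and 817.4 for transgenic mouse 1, and 1306.7 and 1045.2 for transgenic mouse 2. The control mice gave 1252.6 and 1398.8 in mouse 1 and 1968 and 1343.7 in mouse 2. Normalized, it was 9.97 and 9.89 in the transgenic mice against 10.24 and 10.55 in the control mice, so both transgenic mice lay below both control mice, as did 20.9% of all rows tested. The difference was -0.47 ± 0.19 (SE, limma unadjusted p = 0.0598, adjusted p = 0.606), with a 95% interval of -0.96 to 0.03, or 1.38-fold lower in the transgenic mice. Single arrays overlapped, from 9.7 to 10.11 in transgenic mice against 10.09 to 10.65 in control mice. The transgenic mice averaged 9.93 ± 0.06 and the control mice 10.4 ± 0.22 (SD, n = 2 each), and the control mice differed from each other by 0.31. From bulk mucosa, fewer cells that express a gene and less RNA per cell cannot be told apart.

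Nrarp (ILMN_2596979), a target that feeds back to limit Notch signalling, gave raw signals of 1022.4 and 1049.4 for transgenic mouse 1, and 1558.3 and 1604.1 for transgenic mouse 2, against 1316.6, 1092.6, 1339.6 and 1051.9 in the control mice. Normalized, it was 10.28 and 10.35 in the transgenic mice against 10.09 in each control mouse. Both transgenic mice exceeded both controls, as did 21.7% of all rows tested. The arrays did not overlap either, from 10.23 to 10.36 in transgenic mice against 10.01 to 10.17 in control mice. Arrays of the same mouse are not independent, and the share of rows whose arrays do not overlap was not counted. The difference was small, 0.22 ± 0.16 (SE, limma unadjusted p = 0.227, adjusted p = 0.727), with a 95% interval of -0.2 to 0.64, or 1.17-fold. Its sign is opposite to that of Hes1, although both genes are Notch targets. Neither difference passed the test, and the difference between the 2 genes was not tested.

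**Figure D2:**
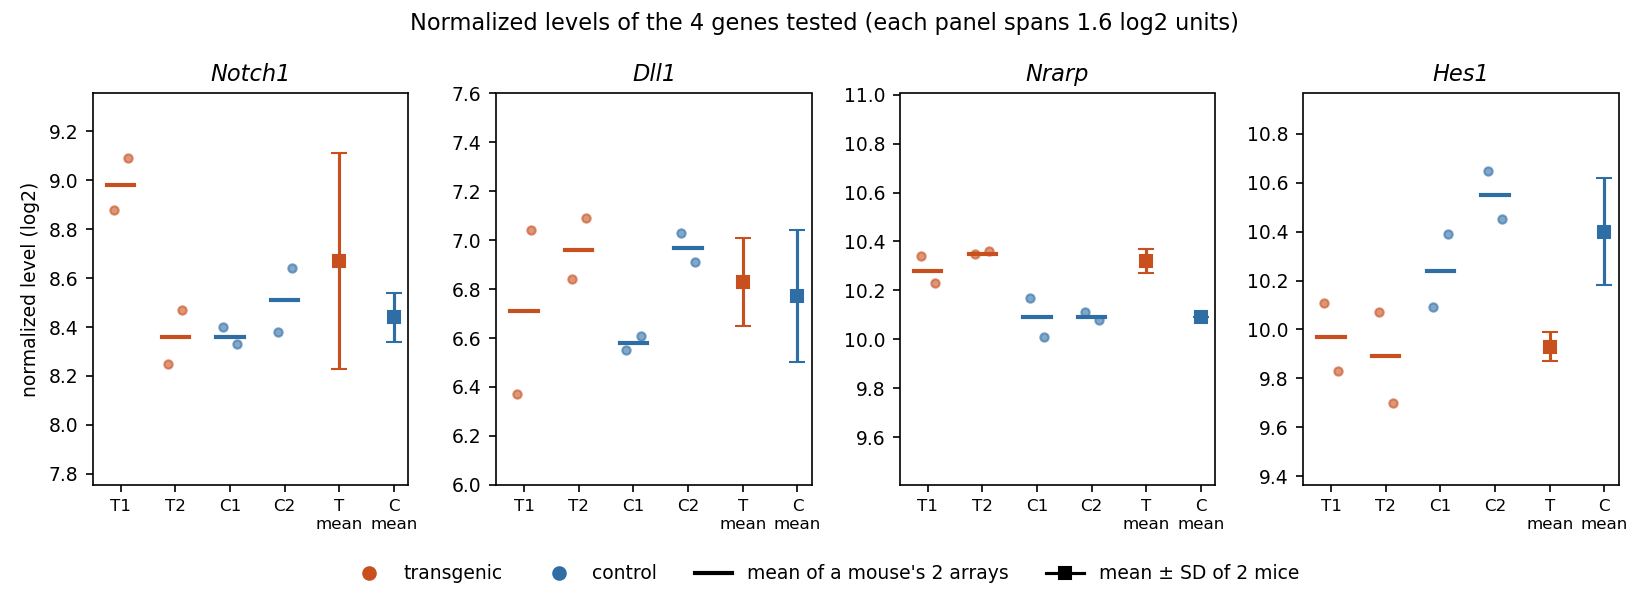
Normalized log2 level of the 4 tested genes in the 2 transgenic mice (T1, T2) and the 2 control mice (C1, C2), with points for arrays, bars for the mean of a mouse and squares with error bars for the mean ± SD of 2 mice. Each panel spans the same range of 1.6 log2 units. For Hes1 both transgenic mice lie below the controls and for Nrarp above them, while Notch1 and Dll1 overlap.

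Numb (ILMN_2878726), the cell fate determinant that inhibits Notch receptors, gave 87.7, 86.7, 116 and 108.2 in the transgenic mice against 103.8, 101.7, 104.7 and 93.1 in the control mice. Its only detected array was array 1 of transgenic mouse 2, with a detection p of 0.00647, and the genotypes overlapped. Atoh1 (ILMN_2767705) gave 61.5, 61.2, 60 and 83.5 in the transgenic mice against 64, 61.3, 71.9 and 73.7 in the control mice. No array reached a detection p under 0.05 for Atoh1, and the genotypes overlapped. In the fit without a filter the difference was -0.01 ± 0.1 for Numb and -0.02 ± 0.08 for Atoh1 (SE, limma adjusted p = 0.997 and 0.983). The lineage factor that Hes1 represses was thus at background on these arrays, and no direction is given for it.

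The 3 genes whose profile over the 8 arrays lay nearest to that of Hes1 were Stx4a, Kptn and Tmem60. The measure was the root mean square difference of log2 levels centred on each gene's mean, which was 0.082, 0.087 and 0.088 for them against a median of 0.369 over all genes tested. Stx4a averaged 8.24 and 8.1 in the transgenic mice against 8.62 and 8.82 in the control mice. Kptn and Tmem60 differed by -0.46 and -0.37 log2 units between genotypes. None of the 3 passed the limma test, with adjusted p-values of 0.519, 0.581 and 0.663. Atoh1 was not tested and has no such profile.

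The rest of the pathway was described through a list of 62 other genes, of which 53 were on the array, 19 were tested and 26 were detected on no array. None of the 19 passed the limma test and 1 did at an unadjusted p under 0.05, against 8.41% of all rows tested. Differences were positive for 12 genes and negative for 7, and the genotypes did not overlap for 8 genes, with 5 higher and 3 lower in the transgenic mice, against 21.7% and 20.9% of all rows tested. The median difference was 0.09 log2 units, with 0.23 for transgenic mouse 1 and -0.06 for transgenic mouse 2, against -0.01 over all genes tested. Among the modulators of ligands, Neurl1a, a ubiquitin ligase of the Neuralized family, was 10.38 and 9.32 in the transgenic mice against 9.16 and 8.89 in the control mice, a difference of 0.83 ± 0.39 (SE, limma adjusted p = 0.64). Mib1 and Mib2, the Mindbomb ligases that make ligands able to signal, differed in opposite directions, Mib1 by 0.3 ± 0.19 and Mib2 by -0.29 ± 0.17.

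Aph1b, a subunit of gamma-secretase, had the smallest p of the list. It was 7.26 and 7.73 in the transgenic mice against 8.18 and 8.4 in the control mice, a difference of -0.8 ± 0.23 (SE, limma unadjusted p = 0.0196, adjusted p = 0.476). Other gamma-secretase subunits, named after their values were seen, differed by -0.21 (Psenen), 0.11 (Ncstn) and 0.01 (Psen2). Aph1a and Aph1c, named in the same way, were detected on no array. Without a filter they differed by -0.16 ± 0.28 and 0.03 ± 0.07 (SE). Tle4, a corepressor of the Groucho family that Hes proteins recruit, was 10.01 and 10.18 in the transgenic mice against 10.3 and 10.56 in the control mice, a difference of -0.33 ± 0.19. The E3 ligase Dtx2 of the Deltex family differed by 0.24 ± 0.19, the Wnt pathway adaptor Dvl1 by 0.22 ± 0.17 and the acetyltransferase Kat2a by 0.17 ± 0.17. Without transgenic mouse 2, Neurl1a at 1.36 and Aph1b at -1.03 passed the test (limma adjusted p = 0.0231 and 0.0346), while 850 rows of the table passed under that setting. Without transgenic mouse 1 they were 0.3 and -0.56 (limma adjusted p = 0.529 and 0.302).

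**Figure D3:**
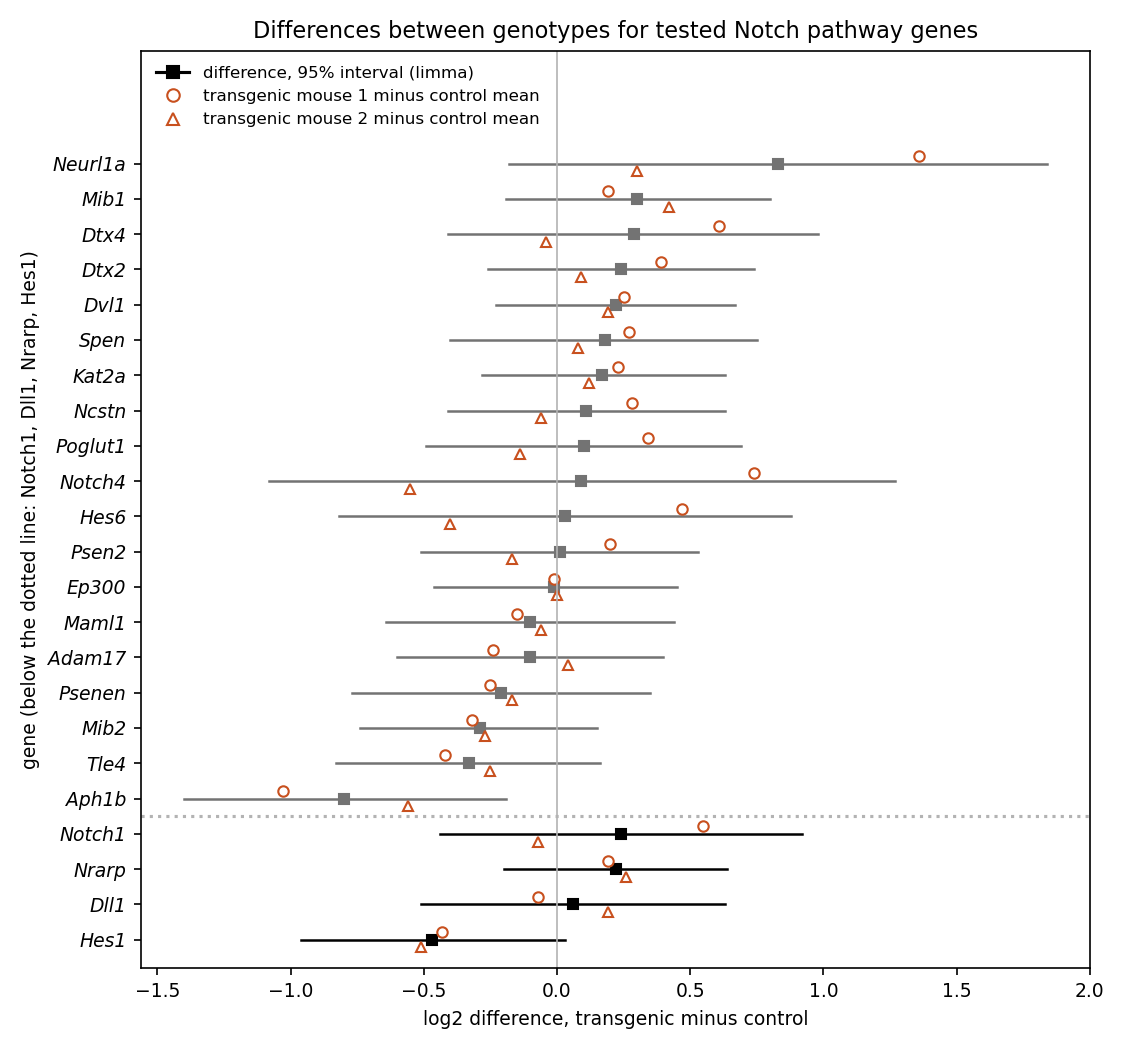
Differences in log2 level, transgenic minus control, for the 19 other Notch pathway genes tested (above the dotted line) and for Notch1, Nrarp, Dll1 and Hes1 (below it), with 95% intervals from limma. Circles and triangles give transgenic mouse 1 and transgenic mouse 2 against the control mean. Aph1b is the only gene whose interval, -1.4 to -0.19, leaves out 0, and Neurl1a has the largest positive difference.

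The 2 transgenic mice went opposite ways for further genes, which were chosen after their values were seen. Notch4, a receptor known from endothelium, was 9.41 in mouse 1 and 8.11 in mouse 2 of the transgenic pair, against 8.73 and 8.61 in the control mice. It was detected on 2 of 4 arrays in each genotype. Hes6, a relative of Hes1 found in secretory precursors, was 10.67 in mouse 1 and 9.8 in mouse 2 of the transgenic pair, against 10.14 and 10.27 in the control mice. For both genes the mean difference between genotypes was near 0 (0.09 and 0.03), and that of Hes6 turned to -0.09 when arrays were scaled to a common median.

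Of the 34 other pathway genes on the array that were not tested, 13 had detection values that were not whole multiples of the step that the other rows share, and so did Notch2, Rbpj and Numb. Such rows may be averages of more than 1 probe, although no source says so, and such a row can be bright and still count as not detected. Furin, the protease that cleaves Notch receptors on their way to the surface, gave 1141.4 to 1303.5 in the transgenic mice against 962.4 to 1521.9 in the control mice, and was detected on 0 transgenic and 2 control arrays. Tle1, another Groucho corepressor, gave 361.5 to 438 in the transgenic mice against 224.6 to 361.2 in the control mice and was detected on no array. Without a filter Tle1 differed by 0.74 ± 0.26 (SE, limma adjusted p = 0.594). Notch2, Rbpj and Numb, in contrast, had raw signals no higher than 116. Among rows with whole steps, the ligand-like Dlk1 gave 106.9 to 268.1 in the transgenic mice against 97.2 to 121.9 in the control mice, and was detected on 2 transgenic and 0 control arrays. These 3 genes were named after their values were seen.

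A list of 32 genes that act downstream of Notch in lineage choice had 29 genes on the array and 19 tested. None passed the limma test, and 2 did at an unadjusted p under 0.05, against 8.41% of all rows tested. The genotypes did not overlap for 3 genes that were higher and 1 that was lower in the transgenic mice, against 21.7% and 20.9% of all rows tested. The median difference was 0.16 log2 units. Cdkn1c, a cell cycle inhibitor, was 12.37 and 11.78 in the transgenic mice against 10.52 and 10.51 in the control mice, a difference of 1.56 ± 0.25 (SE, limma adjusted p = 0.184). Neurog3, the factor that starts the enteroendocrine programme after Atoh1, was 8.68 and 7.73 in the transgenic mice against 7.06 and 6.87 in the control mice, a difference of 1.24 ± 0.35 (SE, limma adjusted p = 0.46). Both were named for having the smallest p-values of the list. With the 8 arrays fitted and the mouse as a random effect, both passed (limma adjusted p = 0.00151 and 0.0347), as did 185 of 6982 rows. That fit draws on 8 arrays, although each genotype has 2 mice. With the array number added as a block, Cdkn1c passed and Neurog3 did not (limma adjusted p = 0.00446 and 0.0676). With background inferred from all rows the differences were 1.83 and 0.23. Neurod1, Pax4, Pax6 and Nkx2-2, which act after Neurog3, were detected on no array.

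For 5 factors of secretory and colonocyte fate, chosen after their values were seen, the gap between the transgenic mice was larger than the difference between genotypes. Spdef, which drives goblet maturation, was 12.37 in mouse 1 and 11.02 in mouse 2 of the transgenic pair, against 11.21 and 10.96 in the control mice. Creb3l1 was 9.72 in mouse 1 and 8.49 in mouse 2 of the transgenic pair, against 8.45 and 8.57 in the control mice, and Foxa3 was 13.44 in mouse 1 and 12.39 in mouse 2 of the transgenic pair, against 12.64 and 12.5 in the control mice. For these 3 genes transgenic mouse 1 was the highest of the 4 and transgenic mouse 2 lay within 0.18 log2 units of the control mean. Gfi1, which favours goblet over enteroendocrine fate, was 9.6 and 8.89 in the transgenic mice against 9.03 and 9.15 in the control mice. Klf4, a factor of goblet cells and differentiated colonocytes, ran the other way, with 9.84 in transgenic mouse 1 and 11.16 in transgenic mouse 2, against 10.98 and 10.96 in the control mice. Insm1, an enteroendocrine factor also chosen after its values were seen, was 7.97 and 6.95 in the transgenic mice against 6.71 and 6.93 in the control mice.

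Markers of the cells that lineage choice produces gave no call in any list under the limma fit on the means of each mouse. With the 8 arrays fitted and the mouse as a random effect, 13 of 43 genes given here with a change were called, against 185 of 6982 rows. Many of the 43 were named for the smallest p of their list in these data, so that share is no support. Among the 13 were the lineage markers Gng13, Kctd12, Cck, Sct, Scnn1b and Saa1. Of 13 goblet genes tested, differences were positive for 6 and negative for 7, with a median of -0.06. Tff3, the trefoil peptide of goblet mucus, had the smallest p, at -0.77 ± 0.19 (SE, limma adjusted p = 0.375), followed by Galnt12 at 0.47. Of 14 enteroendocrine genes, 7 were positive and 7 negative, with a median of 0.33 for transgenic mouse 1 and -0.59 for transgenic mouse 2. The gut hormone Cck was detected on 4 of 4 transgenic and 0 of 4 control arrays, at least 3.51-fold higher in the transgenic mice. It thus passed the detection filter only through the genotype where it is high. Neither its limma adjusted p of 0.229 nor its call with the random effect therefore supports anything. The hormone Sct differed by 0.91.

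For all 12 tuft genes tested the transgenic mice lay above the control mice without overlap, as for 21.7% of all rows tested, with a median of 1.56 log2 units. Alox5 and Spib were admitted to the test by detection in transgenic mice only, and the median of the other 10 was also 1.56. Their smallest p-values belonged to Gng13, at 1.99, and Kctd12, at 1.43 (limma adjusted p = 0.107 and 0.112), and Pou2f3, the tuft lineage factor, was detected on no array. Absorptive colonocyte genes ran lower, with 17 of 18 negative, against 3291 of all 6412 genes tested. Their median was -1.05, but it was -2.12 for transgenic mouse 1 and -0.04 for transgenic mouse 2. The genotypes did not overlap for 9 of the 18, all lower, against 20.9% of all rows tested. The sodium channel subunit Scnn1b differed by -2.06 and the acute phase gene Saa1 by -1.59 (limma adjusted p = 0.303 and 0.391). All 10 proliferation genes tested were positive, against 3121 of all 6412, with a median of 0.63, led by Rrm2 at 0.81 and Mcm2 at 0.8. For 9 of them the genotypes did not overlap, all higher, against 21.7% of all rows tested. The part that these differences in cell markers have in the values of Hes1 and Nrarp was not tested.

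**Figure D4:**
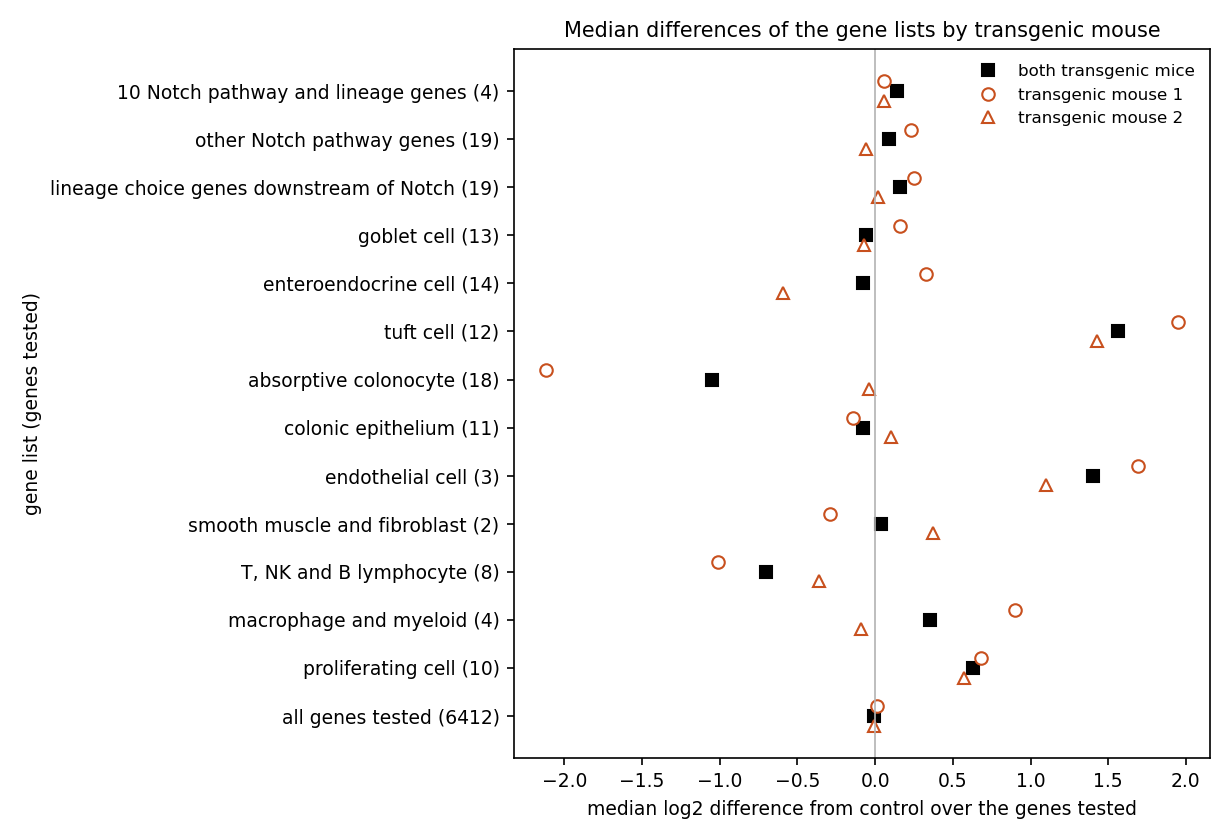
Median log2 difference from the control mice over the tested genes of each list (number tested in brackets), for both transgenic mice together (squares), transgenic mouse 1 (circles) and transgenic mouse 2 (triangles). The Notch lists lie between -0.06 and 0.25, near the median of all genes tested at -0.01, while the tuft list lies at 1.56 and the absorptive list at -1.05, with the transgenic mice far apart in the absorptive list. The enteroendocrine, endothelial and myeloid lists hold 1 row each, and the tuft list 2, that were detected in the transgenic mice only.

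The tissue label was checked with markers, and 11 of 12 colonic epithelium genes on the array were tested, with Slc26a3 detected on no array. Their median difference was -0.08. Summed levels per mouse, here and below, add every gene of a list that is on the array, tested or not. They thus include rows at background. As probes are not on a common scale, each sum is set mostly by its brightest rows. For the epithelium list they were 126000 to 175000 in the transgenic mice against 157000 to 167000 in the control mice. Krt20 and Krt18 had the smallest p-values, at -1.12 and 0.24. Most markers of other cells were not detected. Of 18 endothelial genes 13 were detected on no array, among them Pecam1, Cdh5, Kdr and Tek, and 3 were tested. Levels summed over all 18 were 2000 to 3240 in the transgenic mice against 936 to 965 in the control mice. Most of that gap was Vwf alone, at 11.08 and 10.2 log2 units in the transgenic mice against 7.7 and 7.65 in the control mice. Vwf differed by 2.96 (limma adjusted p = 0.0975) and Plvap was at least 2.45-fold higher, on a row admitted to the test by detection in transgenic mice only. Of 18 smooth muscle and fibroblast genes 13 were detected on no array, among them Des, Myh11 and Col1a1. The 2 tested, Smtn and Mylk, differed by 0.9 and -0.82. Levels summed over all 18 were 1230 to 1360 in the transgenic mice against 1330 to 1440 in the control mice. Lymphocyte genes had a median of -0.7 over 8 tested, led by Cd3d at -0.99 and Ccl5 at -0.76, with Ptprc, Cd4 and Cd8a detected on no array. The list was split, with 6 genes negative and 2 positive. The genotypes did not overlap for 5 lower and 2 higher genes, against 20.9% and 21.7% of all rows tested. Levels summed over the 18 lymphocyte genes on the array ran the other way. They were 5140 to 9210 in the transgenic mice against 4680 to 4850 in the control mice. Of the myeloid genes 4 were tested, with Ctss at -0.6 and Mrc1 at least 2.98-fold higher on a row admitted in the same way. Their list had Csf1r and Adgre1 detected on no array and summed levels of 3060 to 4770 in the transgenic mice against 3110 to 3290 in the control mice. Summed levels of the tuft list were 7010 to 11400 in the transgenic mice against 2830 to 2840 in the control mice. Those of the absorptive list were 55100 to 144000 against 136000 to 148000, and those of the proliferation list 10700 to 11900 against 6510 to 8140, in the transgenic and the control mice. Dnmt1 itself was 7.44 and 6.75 in the transgenic mice against 9.41 and 9.18 in the control mice, 4.6-fold lower at a difference of -2.2 ± 0.28 (SE, limma adjusted p = 0.129), in the direction that the study's title gives, and did not pass the threshold.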

How the data were processed

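Total RNA from colonic mucosa was isolated with Trizol and labelled with the Illumina TotalPrep kit, per the labels' protocols. Per the submitters' processing notes, the software was BeadStudio and Partek, with no version given. The authors deposited a table of linear intensity values without normalization, with a detection value per row and array as a fraction, which rises with the signal and was read as 1 minus the detection p-value. Log2 values quantile normalized by the authors, from the series matrix, served as an alternative.

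Background was corrected by normexp in limma 3.58.1 (R 4.3.3), with its parameters inferred from the detection p of the 13920 rows whose values were whole steps on every array, an offset of 16, quantile normalization and log2. Log2 differences are on a scale with this offset and understate changes of dim rows. The 6982 rows tested stood for 6412 genes, each given by its brightest row. Arrays of a mouse were averaged, and the mouse is the replicate. A fold given as "at least" is a bound for a row undetected on all arrays of a genotype: the other genotype's mean was set against each array's lowest detected level, or the row's own level if higher. The number of mice limits the precision. No slide or scan date is given in the sources used here.

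The members and gene lists were chosen with earlier results of these data known. Named were all 10 members, the 8 pathway genes with the smallest p whose genotypes did not overlap, 2 genes per lineage or cell type list, and genes marked in the text as chosen after their values were seen. RefSeq gave names and promoter windows; the files name no genome build, so no other coordinates are printed. Alternatives were another background inference, median scaling, an offset of 50, other detection filters, the series matrix, each array alone, 8 arrays with the mouse as a random effect (statmod 1.5.0) with and without a replicate block, and each mouse left out.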

Additional observations from a re-analysis of the deposited data

Results flagged for a closer look

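Among 38 sets of 4 arrays of a genotype (the 10 genes, Dnmt1 and the 8 named pathway genes, in each genotype), 2 had an array that stood apart from the other 3 by Dixon's ratio, the gap to the nearest array over the whole range, at the 95% level. By chance about 1 set in 20 is marked in this way. For Nrarp, array 2 of transgenic mouse 1 read 10.23 log2 units against 10.34 to 10.36 on the other 3 transgenic arrays (ratio 0.862). For Dnmt1, array 1 of control mouse 1 read 9.63 against 9.14 to 9.22 on the other 3 control arrays (ratio 0.83). The sets join 2 arrays of each of 2 mice, so the arrays are not independent.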

How the results depend on the processing

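None of the 4 tested genes was called under any of the alternatives, the fit with a replicate block included. Over the alternatives that kept all mice, Hes1 lay between -0.66 and -0.28 (limma adjusted p = 0.36 to 0.948) and Nrarp between 0.14 and 0.24 (0.567 to 0.949). Notch1 lay between 0.09 and 0.3 and Dll1 between -0.19 and 0.31. With each mouse left out in turn the ranges were -0.62 to -0.31 for Hes1, 0.19 to 0.26 for Nrarp, -0.07 to 0.55 for Notch1 and -0.13 to 0.25 for Dll1. Dll1 turned to -0.19 on array 1 alone, and Hes6 to -0.09 with median scaling and -0.07 on array 2 alone. The cause of these reversals was not tested. At an unadjusted limma p under 0.05, Hes1 passed with background inferred from all rows (0.0455), the series matrix (0.0461) and median scaling (0.031). It also passed without a filter (0.0324) and on array 2 alone (0.0117). Hes1 did not pass with an offset of 50 (0.0514), detection on all 8 arrays (0.0546) or a detection p under 0.05 (0.0569). Nor did it on array 1 alone (0.35), with the random effect (0.109) or with the replicate block (0.112). Nrarp passed with background from all rows (0.0139) and without a filter (0.0353). In the settings where Hes1 passed, 555, 590, 607, 1523 and 726 rows did, of 18097 without a filter and 6982 otherwise. Without transgenic mouse 2, Notch1 differed by 0.55. With background inferred from all rows, which gave it an SD of 389 to 682, many values shrank. Among them were Dnmt1 at -0.64, Aph1b at -0.16, Cck at 0.15, Plvap at 0.08, Mrc1 at 0.12 and Scnn1b at -0.29. Neurog3 shrank to 0.23, Gng13 to 0.7, Kctd12 to 0.48, Saa1 to -0.49 and Rrm2 to 0.1. Cd3d shrank to -0.08, Smtn to 0.26, Mylk to -0.18, Ctss to -0.15 and Insm1 to 0.09.

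The count of rows called, 9 in the fit reported, was 0 with background from all rows (555 rows at an unadjusted p under 0.05), 2 without a filter (1523) and 1 with detection on all 8 arrays (428). It was 185 with the mouse as a random effect and 137 with the replicate block; the labels' replicate numbers count the 2 arrays of a mouse and pair no mice. Dnmt1 at -2.2 passed the threshold under those 2 fits (limma adjusted p = 0.00547 and 0.0143). Of 43 genes given with a change, 13 passed with the random effect (Dnmt1, Cdkn1c, Neurog3, Cck, Sct, Gng13, Kctd12, Scnn1b, Saa1, Vwf, Plvap, Cd3d and Mrc1) and 9 with the replicate block, where Neurog3, Sct, Saa1 and Cd3d did not pass. Many of the 43 were named for a small p in these data, so these counts are no support. Cck, Plvap and Mrc1 were admitted to the test by detection in transgenic mice only. Without transgenic mouse 2, 25 of the 43 passed, and without transgenic mouse 1, 4 (Dnmt1, Gng13, Vwf and Mrc1). Without a mouse the count ran from 0 to 850 rows and from 0 to 2 pathway genes, and Dnmt1 from -2.55 to -1.86. The count of rows was 53 without transgenic mouse 1, 850 without transgenic mouse 2, and 0 without either control mouse (332 and 199 rows at an unadjusted p under 0.05). A mouse left alone in its genotype was assumed to vary like the other pair.

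With each mouse left out in turn, these named genes changed sign: Krt20 (-2.33 to 0.1), Mylk (-1.72 to 0.08), Spdef (-0.07 to 1.28), Gfi1 (-0.2 to 0.51), Klf4 (-1.13 to 0.19), Creb3l1 (-0.02 to 1.21), Foxa3 (-0.18 to 0.87), Notch4 (-0.55 to 0.74) and Hes6 (-0.4 to 0.47). The filter at a detection p under 0.05 was added after the data were seen. Rows near background, such as those of Atoh1 and Rbpj, are limited by signal, and their differences say nothing about RNA.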
